A study of Mus musculus with 3 samples.

Results

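The genes described here encode the heavy chain of immunoglobulin M, the chain that joins its polymers and the surrogate light chain of early B cells. They were taken as the probe sets whose single annotated symbol is Ighm, Igll1, Vpreb1 or Jchain (listed earlier as Igj). These are 4 of the 8220 genes named on the array, read by 20 of the 12588 probe sets that are not controls: 16 for Ighm, 2 for Igll1, 1 for Vpreb1 and 1 for Jchain. A further 3 probe sets list Ighm beside other immunoglobulin symbols and were left out.

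RNA came from LNC, a malignant B-1 cell line grown from the lymph node of 1 New Zealand Black mouse of 1 year. All 3 groups are this single line, and each was measured on 1 array of the Affymetrix Murine Genome U74 A type. The antisense group received 20 µM of an oligonucleotide against IL-10, a cytokine made by malignant B-1 cells. The scrambled group received 20 µM of an oligonucleotide with a scrambled order of bases, a control for effects of any oligonucleotide, and the untreated group received none. RNA was taken at 24 h. The comparisons ask what targeting IL-10 does beyond the effects of an oligonucleotide as such. Each group being 1 array, no difference has a replicate check and neither tests nor p-values are given. The small number of arrays limits the precision of all values.

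The heavy chain mu, encoded by Ighm, is the first immunoglobulin chain that a developing B cell makes. Before a light chain gene is rearranged, mu pairs with a surrogate light chain, made of VpreB (Vpreb1) and lambda-5 (Igll1), to form the pre-B cell receptor. Mature B cells replace it by a conventional kappa or lambda chain and switch both surrogate genes off. When IgM is secreted, the J chain (Jchain) links its monomers into polymers, and antibody-secreting cells are known for high Jchain RNA. Mu RNA is made in a membrane form and a secreted form, and each clone carries its own rearranged variable region.

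RefSeq tables hold a promoter entry for 3 of the 4 genes, and none for Ighm. Igll1 and Vpreb1 lie next to each other on chromosome 16 with 0 annotated genes between them. The 250 bases before each start are shown because these genes are held to be controlled by lineage factors such as E2A, which binds E-boxes. Build GRCm38.p6 and the strand of the gene are used, and capitals mark every E-box (CANNTG).
Igll1 (chr16:16863986-16864235, minus strand): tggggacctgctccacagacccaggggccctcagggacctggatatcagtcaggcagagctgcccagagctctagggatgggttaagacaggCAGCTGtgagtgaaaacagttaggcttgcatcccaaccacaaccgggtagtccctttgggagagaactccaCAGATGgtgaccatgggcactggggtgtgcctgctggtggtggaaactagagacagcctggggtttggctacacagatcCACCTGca
Vpreb1 (chr16:16869256-16869505, minus strand): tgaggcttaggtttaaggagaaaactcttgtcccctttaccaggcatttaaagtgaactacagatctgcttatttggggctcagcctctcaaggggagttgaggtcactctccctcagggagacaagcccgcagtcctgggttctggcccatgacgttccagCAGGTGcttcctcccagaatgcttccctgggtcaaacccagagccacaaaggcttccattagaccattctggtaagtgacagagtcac
Jchain (chr5:88527898-88528147, minus strand): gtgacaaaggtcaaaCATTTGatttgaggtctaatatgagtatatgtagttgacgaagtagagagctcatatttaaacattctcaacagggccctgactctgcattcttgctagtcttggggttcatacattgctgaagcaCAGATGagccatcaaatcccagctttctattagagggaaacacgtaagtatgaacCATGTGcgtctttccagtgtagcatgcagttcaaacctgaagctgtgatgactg

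Igll1 had 3 E-boxes in this window, Vpreb1 1 and Jchain 3, searched on both strands. An E-box is common, found in 66.2% of 32851 promoter windows of this length. The form CAGGTG, which overlaps the general E-box and was searched with its reverse complement, occurred once each in Igll1 and Vpreb1 and not in Jchain, against 17.2% of all windows. The octamer ATGCAAAT of immunoglobulin promoters occurred in none of the windows of these 3 genes on either strand, and in 1.6% of all windows. The EBF1 core CCCNNGGG occurred once in Igll1 alone, against 11.8% of windows, and the PU.1 core AGGAAG once in Vpreb1 alone, against 29.5%. These matches describe the letters of the reference sequence and not binding. The sequences of the probe sets themselves were not used here, and the annotation does not state which part of the heavy chain each Ighm probe set reads.

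Values are probe set intensities in arbitrary units, scaled to a common level on each array, and those below a noise floor of 595.9 have no order among themselves. A difference is the log2 intensity on 1 array minus that on another, with values below the floor set to it, and 2-fold (a log2 difference of 1) was used for counting. As a yardstick of error for each probe set, the scatter between both control arrays was used, as the 95th percentile of their absolute log2 difference among the 300 probe sets of closest level. Any effect of the scrambled oligonucleotide is part of it. Between 42.0% and 42.6% of probe sets lay above the floor on an array. Il10, the targeted gene, read 13946 on the array labelled antisense against 5616 with scrambled oligonucleotide and 5164 without treatment. The targeted RNA was thus higher under its own label, so the name "array labelled antisense" is kept, and each direction drawn from it rests on that label. On that array 6 bacterial spike-in probe sets were on average lower, by -0.63 on the log2 scale relative to untreated and -0.51 relative to scrambled, so scaling to them would raise all values there by as much. Yardsticks were not recomputed under that scaling, so a level probe set passes any yardstick smaller than this common shift. The 3-prime over 5-prime signal of 18S ribosomal RNA was 8.13 on the array labelled antisense against 4.48 with scrambled oligonucleotide and 1.72 without treatment. The part of these differences in the values below was not tested.

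The B cell label was checked against marker genes. Of 6 general B cell markers on the array, 5 were above the floor on the 3 arrays, among them Cd79a, the signalling partner of surface immunoglobulin, and Ms4a1, which encodes CD20, while Cd22 was below it. The B-1 markers Cd5, Spn and Itgam were below the floor on the 3 arrays, so the labelled B-1 subset was not visible in these markers. Of 6 early B cell markers only Rag1 exceeded the floor, at 759 on the array labelled antisense and 892 on the untreated array, in a family probe set. Rag2, Dntt, Il7r, Kit and Cd93 did not. Among 6 T cell markers only Cd4 was above the floor, and the 4 Cd3 chain genes were below it. Of 5 macrophage markers, Cd14 read 1088, 1563 and 2061 on the array labelled antisense, the scrambled and the untreated array, and Cd68 read 1331, 767 and 854, while Csf1r exceeded the floor on the untreated array only, at 949. Adgre1 and Lyz2 were below it. Of 4 fibroblast markers, Col1a1 read 829, 1006 and 996 and the others were below the floor. Above the floor, the macrophage markers summed to 2419, 2331 and 3865 and the fibroblast markers to 829, 1006 and 996 in the same order. The general B cell markers summed to 57663, 79916 and 77599, 1 being higher than both controls and 3 lower, beside 37.2% and 32.0% of all probe sets. Ms4a1 differed by -0.51 from untreated and -0.53 from scrambled on the log2 scale, past a yardstick of 0.315. Scaled to the spike-in controls these became 0.12 and -0.01. Cd14, Cd68 and Col1a1 differed between the array labelled antisense and both controls by less than the 95th percentile of control differences at their level, except that Cd68, scaled to spike-in controls, stood 1.27 above untreated and 1.31 above scrambled on the log2 scale, past 0.95. The part of these markers in the values below was not tested.

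Ighm was read by 2 of the brightest probe sets of the arrays and by many that gave no signal. Of its 16 probe sets, 6 were above the floor on the 3 arrays and 10 were below it on all 3, the highest single value among those being 520.7. Both groups hold suffixed and unsuffixed probe sets. Suffix _f marks a probe set that binds members of a sequence family and _s one that binds several transcripts. Suffixed identifiers make up 6 of the 16, 5 of them with _f and 1 with _s. The 10 dim ones are 102159_at, 97577_f_at, 101745_f_at, 96966_at, 101276_at, 100377_f_at, 99885_at, 101749_at, 97568_at and 99420_at, and they give no difference. Their values ran from -515.8 for 99420_at on the untreated array to 520.7 for 102159_at on the scrambled array.

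The brightest Ighm probe set, 93583_s_at, read 145519 on the array labelled antisense against 183787 with scrambled oligonucleotide and 155216 without treatment. Its log2 difference was -0.09 against untreated and -0.34 against scrambled, with a yardstick of 0.33. That yardstick, shared with 93584_at below, draws on probe sets with control levels from 19072 to 202173, so much dimmer ones enter it. The scrambled array was the high one here, at 0.24 over untreated. After quantile normalization the difference from scrambled was -0.07. That method gives equal ranks the same value on each array, so it can pull differences of the brightest probe sets toward none. The yardstick was not recomputed for it. The unsuffixed 93584_at read 75374 on the array labelled antisense against 81918 with scrambled oligonucleotide and 80245 without treatment, a log2 difference of -0.09 from untreated and -0.12 from scrambled. All 3 arrays thus stood within the yardstick for this probe set. Both probe sets exceed 50000, a brightness at which a scanner can compress differences. Whether it did here was not tested. Scaled to the spike-in controls, both turned higher on the array labelled antisense, by 0.54 against untreated in each and by 0.18 and 0.39 against scrambled, each less than the common shift.

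Next in brightness for Ighm, 101870_at read 25443 on the array labelled antisense against 16004 with scrambled oligonucleotide and 13300 without treatment. It was 1.91-fold higher than untreated and 1.59-fold higher than scrambled, log2 differences of 0.94 and 0.67 against a yardstick of 0.35. It has no suffix, lies below 50000 on each array and stayed higher under all 6 alternative scalings and floors, between 0.89 and 1.57 against untreated and between 0.67 and 1.18 against scrambled. The 2 lower floors cannot change it, and values as deposited or scaled to the median hardly differ from those reported. This probe set did not reach 2-fold unless scaled to the spike-in controls.

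The family probe set 101871_f_at showed the largest difference. It read 5746 on the array labelled antisense against 1104 with scrambled oligonucleotide and 1023 without treatment. The ratio was 5.62-fold to untreated and 5.21-fold to scrambled, with log2 differences of 2.49 and 2.38 and a yardstick of 1.55. The controls differed by 0.11. Among the 4539 probe sets above the floor on the 3 arrays, it ranked 1 by the log2 intensity of the array labelled antisense minus the mean of the controls, at 2.44, where 101870_at ranked 146 at 0.80. As a family probe set it can bind transcripts of more than 1 immunoglobulin gene, so its reading cannot be given to Ighm alone.

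The remaining Ighm probe sets above the floor were lower on the array labelled antisense, within the yardstick. Family probe set 100362_f_at read 1553 there, 2100 with scrambled oligonucleotide and 1998 without treatment, with log2 differences of -0.36 against untreated and -0.43 against scrambled and a yardstick of 0.81. Probe set 101346_at read 654, 847 and 1113 on the same arrays, with differences of -0.77 and -0.37 and a yardstick of 1.42. Scaling to the spike-in controls turned the first to 0.27 and 0.08, and the second to 0.14 against scrambled but not against untreated, where it was -0.14.

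**Figure D1:**
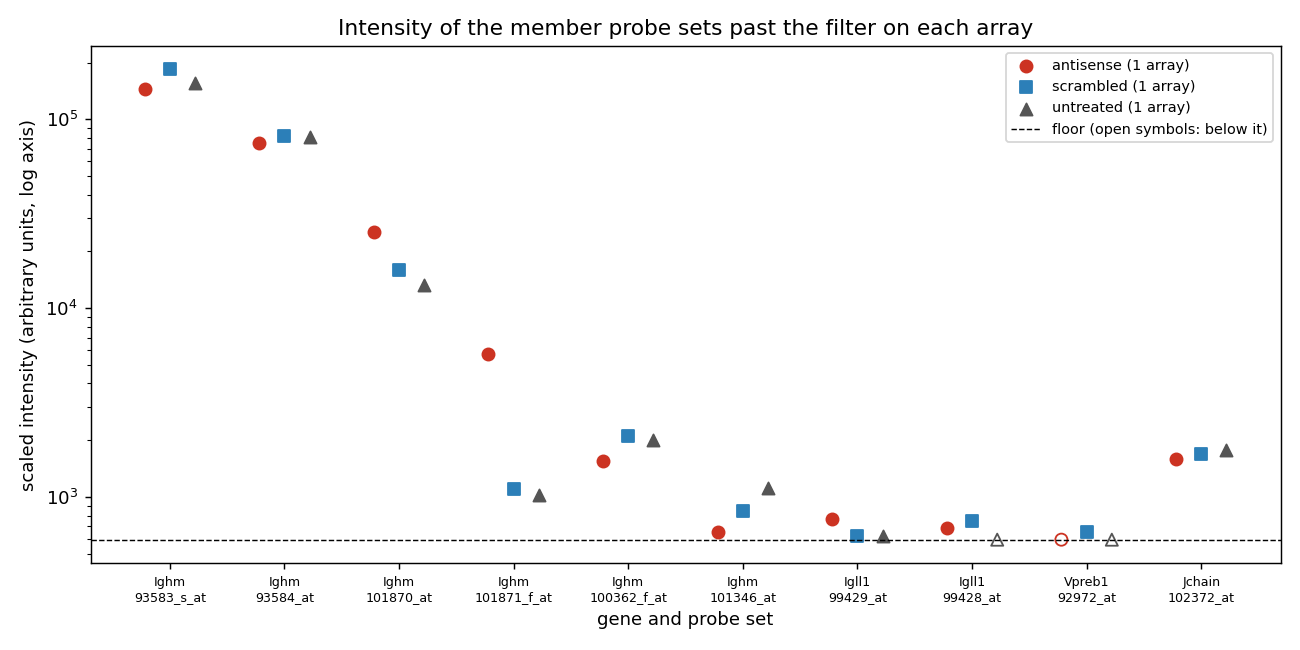
Scaled intensity on a log axis for the 10 probe sets of Ighm, Igll1, Vpreb1 and Jchain that were above the floor of 595.9 on any array, with 1 point for each of the 3 arrays and no error bars, since each group is 1 array. Open symbols are drawn at the floor for values below it. Probe set 101871_f_at reads 5746 on the array labelled antisense against 1104 and 1023, while 93583_s_at and 93584_at lie close together on the 3 arrays.

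The Ighm probe sets thus disagreed in direction. Of the 6 above the floor, on the array labelled antisense 2 were higher than both controls and 4 were lower than both. Over all 4539 probe sets above the floor on the 3 arrays, 37.5% were higher than both controls and 36.4% lower. The median of the 6 differences was -0.09 against untreated and -0.23 against scrambled, beside 0.01 and 0.00 over all such probe sets. Against untreated they spanned 3.26 on the log2 scale, or 9.55-fold, and against scrambled 2.81. Between the scrambled and untreated arrays they spanned 0.66. The comparisons with untreated and with scrambled share the array labelled antisense, so the second does not repeat the first independently. Both bright probe sets and the dimmer pair went below the controls by at most 0.77, and all 4 lost that direction against scrambled when arrays were scaled to the spike-in controls. In bulk RNA of a culture, fewer expressing cells and less RNA per cell cannot be told apart.

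**Figure D2:**
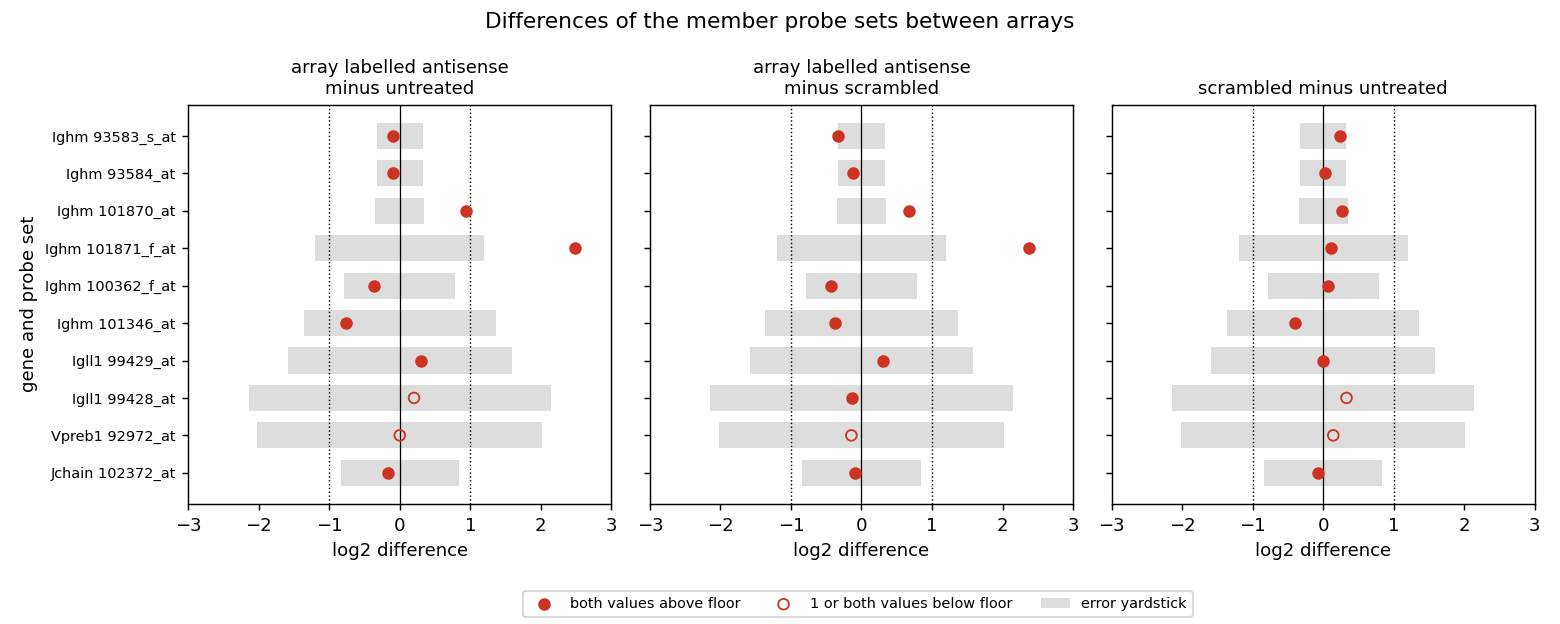
Log2 difference of each probe set that passed the filter in the 3 comparisons, with filled points where both values were above the floor and open points otherwise. Grey bars span the error yardstick on either side of 0, computed with a floor at the 40th percentile so that it is not shortened near the floor, and dotted lines mark 2-fold. Only 101871_f_at lies past 2-fold, at 2.49 against untreated and 2.38 against scrambled, 101870_at lies past its bar at 0.94 and 0.67, and 93583_s_at lies just past its bar on the low side against scrambled, at -0.34.

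Surrogate light chain RNA stood at the edge of detection. Igll1 probe set 99429_at read 770 on the array labelled antisense against 623 with scrambled oligonucleotide and 624 without treatment. The log2 difference was 0.30 against untreated and 0.31 against scrambled. The yardstick of 0.21 at that level is shortened by the floor, since floored values cannot scatter. With a lower floor at the 40th percentile, 178.1, the yardstick is 1.59 and both differences lie within it. The other Igll1 probe set, 99428_at, read 686 on the array labelled antisense and 750 on the scrambled array, a log2 difference of -0.13, while the untreated value of 392 was below the floor. Both treated arrays were above the untreated one in this probe set, by at least 1.15-fold and at least 1.26-fold. With the floor at 178.1 these log2 differences, 0.20 and 0.33 as floored, became 0.81 and 0.94, and the yardstick there is 2.14. The pair of Igll1 probe sets therefore did not order the 3 arrays alike.

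Vpreb1, read by 92972_at, exceeded the floor on the scrambled array only, at 658. It read -645 on the array labelled antisense and -43 on the untreated array. The scrambled value is at least 1.10-fold above either other array when they are set to the floor. This probe set passed the filter through 1 array. With the floor at 178.1 its log2 difference between scrambled and either other array would be 1.89, inside a yardstick of 2.02 at that level.

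Jchain, read by 102372_at, was above the floor on each array and nearly level. It read 1592 on the array labelled antisense against 1691 with scrambled oligonucleotide and 1784 without treatment. The log2 difference was -0.17 against untreated and -0.09 against scrambled, and -0.08 between the controls, with a yardstick of 0.85. Under scaling to the spike-in controls the first 2 differences became 0.47 and 0.43, below the common shift of 0.63 and 0.51.

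At the 2-fold line, 1 of the 10 probe sets that passed the filter was higher against untreated and 0 were lower, where 4.85% of all 6127 passing probe sets were at least 2-fold apart in that comparison (2.64% higher and 2.2% lower). Against scrambled, 1 was higher and 0 lower, where 6.02% were apart (3.2% higher and 2.82% lower). Both counts are 101871_f_at, and 1.35% of all passing probe sets were at least 2-fold higher than both controls and 1.06% lower. Scrambled against untreated gave 0 of 10 at 2-fold, where 3.1% of all were apart (1.7% higher and 1.4% lower). The other 10 of the 20 probe sets were below the floor on the 3 arrays and do not enter these counts. With counts of 0 and 1, the share of these genes cannot be told from that of all probe sets.

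**Figure D3:**
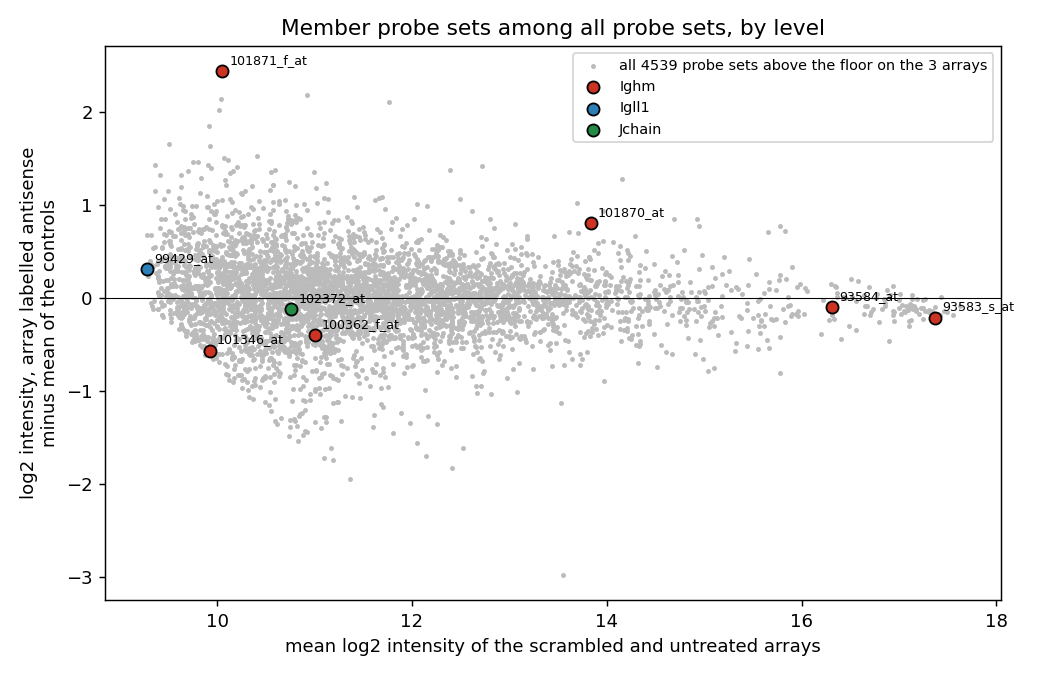
Each grey point is 1 of the 4539 probe sets above the floor on the 3 arrays, placed by its mean log2 intensity on the scrambled and untreated arrays (horizontal) and by the log2 intensity of the array labelled antisense minus that mean (vertical). Coloured points are Ighm, Igll1 and Jchain probe sets; 101871_f_at is the highest point of the plot at 2.44, and the 2 brightest Ighm probe sets lie at -0.22 and -0.10. The slanted lower edge at the left is set by the floor.

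The genes whose pattern over the 3 arrays was nearest to that of 101871_f_at were Pim2, Pim1 and Cdkn1a. Likeness was the Euclidean distance between pairs of log2 differences (array labelled antisense minus untreated, scrambled minus untreated) among 3953 probe sets with 1 symbol, and rests on 3 arrays only. Pim2, a survival kinase gene, lay at a distance of 0.33 and read 14958 on the array labelled antisense against 3634 with scrambled oligonucleotide and 3351 without treatment. Pim1, a related kinase gene, lay at 0.39 and the cell-cycle inhibitor gene Cdkn1a at 0.85.

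Other immunoglobulin genes were higher or lower about as often as all probe sets. The array held 47 probe sets of 26 other heavy and light chain symbols, of which 23 passed the filter and 16 of those exceeded the floor throughout. On the array labelled antisense 8 of these 23 exceeded both controls and 7 lay below both, 1 of each by 2-fold or more. The median difference was 0.00 against each control, but the middle value came from a probe set floored on both arrays compared. Over all 6127 probe sets past the filter, 37.2% exceeded both controls and 32.0% lay below both, with 1.35% and 1.06% at 2-fold or more. Igkv10-96, a kappa variable gene read by family probe set 102157_f_at, was the lower one, at 709 against 1662 with scrambled oligonucleotide and 1901 without treatment. Scaled to the spike-in controls, its log2 differences of -1.42 from untreated and -1.23 from scrambled became -0.79 and -0.72, within the yardstick of 0.91 and under 2-fold. A second Igkv10-96 probe set, 99369_f_at, read 1625, 2848 and 1316 and did not follow it. Igkv14-111 was the higher one, in probe set 100683_r_at, at 1598 against 2 values below the floor, a log2 difference of at least 1.42. Its brighter probe set 96974_at read 19872 against 16604 and 15202, differences of 0.39 against untreated and 0.26 against scrambled with a yardstick of 0.35.

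Most of the bright kappa variable probe sets were nearly level as scaled here. Those annotated Igkv6-23 (102156_f_at), Igkv4-70 (101718_f_at), Igkv4-91 (94725_f_at) and Igkv4-59 (101751_f_at) are family probe sets. Each can bind transcripts of more than 1 gene, so its reading cannot be given to the annotated gene alone. Igkv6-23 read 144346 on the array labelled antisense against 165945 with scrambled oligonucleotide and 146211 without treatment. Igkv4-70 read 98235, 99151 and 110433 and Igkv4-91 read 90846, 111690 and 93681 on these arrays, each difference being within the yardstick of 0.33. As for the brightest Ighm probe sets, this yardstick draws on much dimmer probe sets too. Igkv4-68, in the unsuffixed 102076_at, read 56632, 46562 and 48093, also within its yardstick of 0.31. Scaled to the spike-in controls, it stood 0.87 above untreated and 0.795 above scrambled. Under that scaling Igkv4-70 stood at 0.46 and 0.50, and Igkv6-23 and Igkv4-91 at 0.61 and 0.59 against untreated. The common shift of that scaling, 0.63 and 0.51, is itself past these yardsticks. Igkv4-70, Igkv6-23 and Igkv4-91 stood below the shift and Igkv4-68 above it. Igkv4-59 was higher on the array labelled antisense, at 59863 against 45696 and 44202, with log2 differences of 0.44 against untreated and 0.39 against scrambled and a yardstick of 0.32. Ighg3, a constant region gene of immunoglobulin G, was higher in 102721_at, at 7969 against 5732 and 4352, with log2 differences of 0.87 from untreated and 0.47 from scrambled, the second within the yardstick of 0.48. Its probe set 102722_g_at read 7370 against 4929 and 5209, differences of 0.50 and 0.58 past a yardstick of 0.47. Another of its probe sets above the floor, 102723_at, read 981 against 1943 and 1074, within its yardstick of 1.08. Ighd, the gene of the delta chain that naive B cells carry beside mu, exceeded the floor on the scrambled array only, at 1332.

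Partners of mu in the B cell receptor and pre-B cell receptor numbered 11 in the list. Of these, 8 were on the array and 7 passed the filter, 2 higher than both controls and 3 lower, beside 37.2% and 32.0% over all probe sets. None was 2-fold apart from both controls in either direction, where 1.35% of all were higher and 1.06% lower. With 7 genes, these counts cannot be told from those shares. Cd79a read 21473 on the array labelled antisense against 30469 with scrambled oligonucleotide and 27790 without treatment, with log2 differences of -0.37 against untreated and -0.51 against scrambled past a yardstick of 0.32. Scaled to the spike-in controls these became 0.26 and 0.01. Vpreb3, a relative of Vpreb1, read 2086, 3384 and 2344, and its differences of -0.17 and -0.70 lay within the yardstick of 0.72. The kinase genes Btk and Blk differed from either control by less than their yardsticks. Under spike-in scaling Blk stood 0.955 above scrambled, past its yardstick of 0.85. Of 11 genes of heavy chain gene recombination, 7 were on the array and 5 passed, with 0 higher than both controls and 3 lower. The shares over all probe sets were 37.2% and 32.0%. At 2-fold against both controls there were 0, where 1.35% of all were higher and 1.06% lower. With 5 genes, these counts cannot be told from those shares. Hmgb2, a chromatin protein gene among them, read 20816 against 34517 and 35595, log2 differences of -0.73 and -0.77 past a yardstick of 0.32. Scaled to the spike-in controls these became -0.22 and -0.14, within the yardstick.

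Transcription factors that control heavy chain and surrogate chain genes were counted the same way. Of 20 listed, 17 were on the array and 14 passed, 6 higher than both controls and 5 lower. This is near the shares of 37.2% and 32.0% over all probe sets. At 2-fold against both controls there were 0, where 1.35% of all were higher and 1.06% lower. Spib, an ETS factor gene, had log2 differences of -0.83 from untreated and -0.97 from scrambled, past a yardstick of 0.33. Ikzf1, the Ikaros gene, stood at -1.11 and -0.78, past a yardstick of 0.65. Scaled to the spike-in controls, Spib stood at -0.20 and -0.46, the first within its yardstick, and Ikzf1 at -0.47 and -0.27, both within. Myb, a factor gene of blood progenitors, differed by 0.72 and 1.15 and Irf8, an interferon regulatory factor gene, by 0.90 and 0.64, all within their yardsticks. Pax5, Pou2af1 and Ebf1, further lineage regulators of B cells, differed by at most 0.41 from either control. Under spike-in scaling each stood higher, Pax5 by 0.52 and 0.24, Pou2af1 by 0.74 and 0.725 and Ebf1 by 1.04 and 0.575. Their yardsticks are 0.37, 0.36 and 0.81. The common shift of that scaling, 0.63 and 0.51, is itself past those of Pax5 and Pou2af1.

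Among genes of antibody secretion and plasma cells, 26 were listed, 21 were on the array and 18 passed, with 6 higher than both controls and 8 lower, beside 37.2% and 32.0% over all probe sets. Prdm1, which encodes Blimp-1, the driver of plasma cell differentiation, was the 1 gene at least 2-fold higher than both, where the share over all probe sets was 1.35%. It read 1298 on the array labelled antisense against 472 with scrambled oligonucleotide and 587 without treatment, both below the floor, a log2 difference of at least 1.12 that is within the yardstick of 2.14 obtained with the lower floor. Irf4, another factor gene of plasma cell differentiation, read 24443 against 16268 and 15737, differences of 0.64 and 0.59 past a yardstick of 0.35. Ell2, an elongation factor gene that favours the secreted mu form, differed by 0.56 against untreated and 0.62 against scrambled, within 0.64. Scaled to the spike-in controls, Ell2 stood at 1.185 and 1.13, past that yardstick, and Irf4 at 1.27 and 1.10. The chaperone gene Hspa5, whose product holds unassembled heavy chains, went the other way, at 16644 against 23370 and 26550, though scaling to the spike-in controls left log2 differences of -0.04 from untreated and 0.02 from scrambled. Pdia4, an oxidoreductase gene, read 2503 against 3855 and 4438. Its log2 difference from untreated, -0.83, became -0.20 under that scaling, within its yardstick of 0.64. Pigr, the receptor gene for polymeric immunoglobulin, read 676, 1823 and 796, so the scrambled array stood apart. Xbp1, a secretory regulator gene, was level at 6045, 5943 and 6317, and Sdc1, a plasma cell surface marker, was below the floor on each array. Scaled to the spike-in controls, Xbp1 stood 0.57 above untreated and 0.54 above scrambled. The common shift of that scaling, 0.63 and 0.51, is itself past the Xbp1 yardstick of 0.48.

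**Figure D4:**
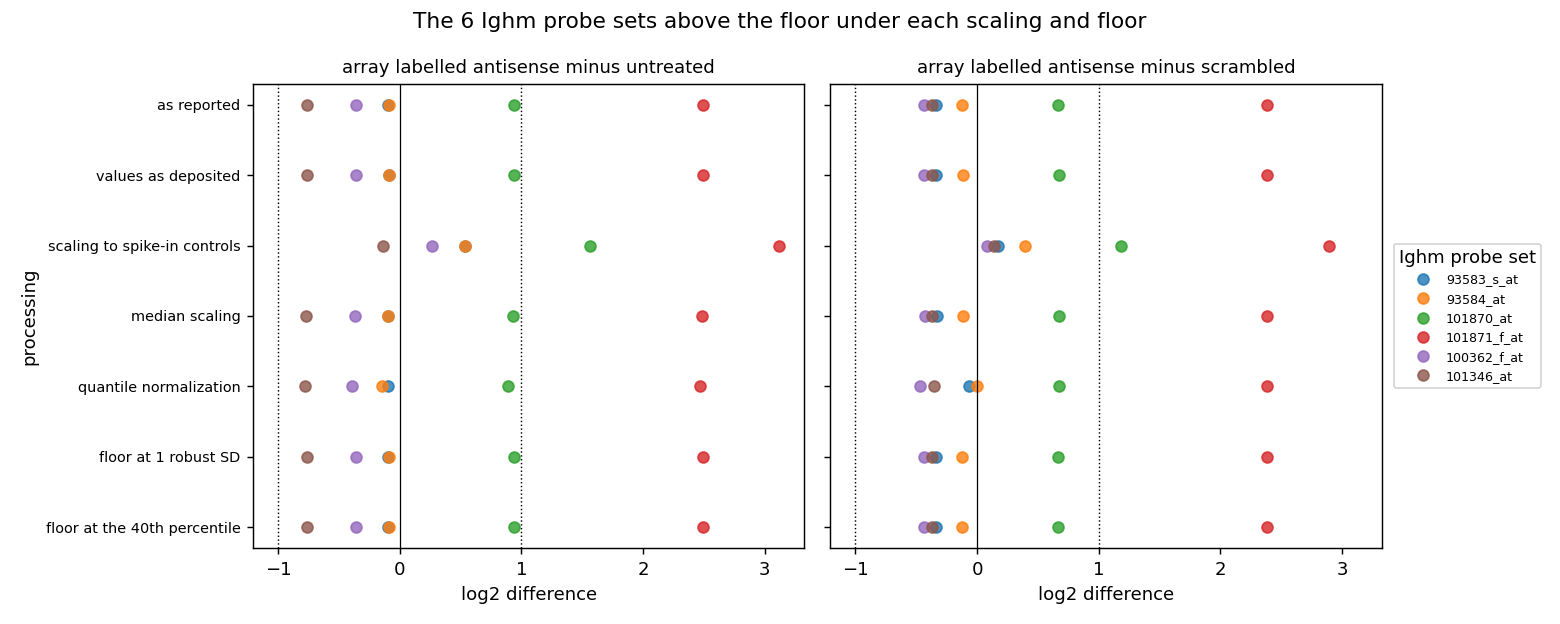
Log2 difference of the 6 Ighm probe sets above the floor, for the array labelled antisense minus untreated (left) and minus scrambled (right), as reported and under the 6 alternative scalings and floors. Dotted lines mark 2-fold. Probe set 101871_f_at stays past 2-fold in each, between 2.47 and 3.12 against untreated, while scaling to the spike-in controls moves all 6 to the right by about 0.63 and 0.51. The 2 lower floors cannot change these 6.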

How the data were processed

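The deposited table holds linear intensity values of 12654 probe sets per array, 66 of them controls. Software and build are not given in the sources used here. From 24.8% to 27.9% of an array's values do not exceed 0, and the mean after trimming 2% from each end is 1500 for all arrays. Here arrays were rescaled to equal trimmed means over probe sets that are not controls. Values were floored at 2 robust standard deviations of the values below 0 (595.9), and log2 was taken. The 6127 probe sets above the floor on any array were kept, so a probe set could pass through 1 array.

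Platform annotation gave 1 symbol for 10276 probe sets that are not controls and several for 363, and none was listed for 1949. Of the first, 10257 matched the RefSeq gene table of GRCm38.p6. All probe sets of the 4 genes are given. From each gene list up to 4 genes above the floor on the 3 arrays are named, those farthest from the controls' mean, with markers and a few pathway genes named beside them after their values were seen. Members and lists were chosen with earlier results of these data known. The counting was tested on simulated data. Python 3.11.15, pandas 2.3.3, numpy 2.4.6 and scipy 1.17.1 were used.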

Additional observations from a re-analysis of the deposited data

How the results depend on the processing

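Other settings changed 1 choice at a time: values as deposited, scaling to spike-in controls, to the median or by quantiles, 2 lower floors, 2 filters, and leaving out suffixed or very bright probe sets. The number of probe sets of these genes at least 2-fold apart was 1 against untreated, 1 against scrambled and 0 between the controls. Scaling to the spike-in controls gave 2 and 2 of 11 tested for the array labelled antisense, adding 101870_at. The shares over all probe sets then rose to 16.5% and 13.4%. With the floor at 1 robust standard deviation (298.0), the count was 2 against scrambled and 1 between the controls, each time adding Vpreb1. Of all probe sets, 11.9% and 7.84% were then 2-fold apart in these comparisons. With the floor at the 40th percentile (178.1), the counts were 2, 3 and 2, through Vpreb1, 97577_f_at and 102159_at, while 15.2%, 17.5% and 12.9% of all probe sets were then 2-fold apart. Without suffixed probe sets both counts for the array labelled antisense were 0, since 101871_f_at is itself left out. Of 180 single differences recomputed under the scalings and floors, 163 moved by no more than the yardstick, 17 moved further and 0 called ones reversed. Many of them could hardly move. Values as deposited and median scaling shifted the typical difference by -0.012 at most. The lower floors cannot change the 8 probe sets above the floor on the 3 arrays. The only called differences were those of 101871_f_at, so these counts are no measure of robustness. The yardstick with the lower floor was added after seeing the data. No replicate could be left out with 1 array per group, and signal near the floor limits Igll1 and Vpreb1 most.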
